A study of Equus caballus with 11 samples.

Results

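Lung and liver of the same horses were compared at 73050 CpG sites, 2.599% of the 2811188 CpGs that any of the 7 libraries listed. The sites were those on chromosomes 1 to 31 with at least 10 reads in every library after both strands of a CpG were combined, so the choice rested on read depth and not on methylation. The libraries came from untreated tissue of healthy young stallions of a cold-blooded breed, taken at a slaughterhouse from a caudal lobe in the case of lung (L) and a right lobe in the case of liver (LR). Lung was represented by horses 1, 2, 3 and 4 and liver by horses 1, 2 and 4, with 1 library per horse and tissue, so that 3 horses gave a lung and a liver library each. Methylation was read by reduced representation bisulfite sequencing (RRBS), in which short fragments around CCGG sites are treated with bisulfite and sequenced, here as single-end reads of 75 bp. The level of a site is the percent of its reads that still show C, and differences are lung minus liver in percentage points.

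In mammals methyl groups are placed on the cytosine of most CpGs, and CpG-rich stretches such as many promoters are commonly left free of them. Differences between tissues are known mainly from sites of intermediate level, at distal regulatory elements and at the borders of CpG-rich stretches, where transcription factors are bound in some cell types and not in others. Both organs are mixtures, lung of epithelial, endothelial, stromal and immune cells and liver mostly of hepatocytes, so a level of a bulk sample is an average over cells. More cells of a type and a change of methylation within a type cannot be told apart in these data. Markers of lung and liver cells were not examined, since no annotation of the build used, EquCab3.0, was at hand and no site was assigned to a gene.

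Depth varied between the libraries. The total of reads over autosomal positions was 8155920 to 22394586 in lung, while liver held both the shallowest library (horse 2, 3255257) and the deepest (horse 1, 25109840). The median depth at the tested sites was 19 to 42 reads per lung library and 48, 14 and 30 reads in liver of horses 1, 2 and 4. Libraries of a tissue differed from each other by more than sampling noise, with a chi-square per degree of freedom of 1.42 to 1.69 over the 9 pairs.

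The tissues differed strongly at few sites and hardly in their average. A site was called a differentially methylated site (DMS) when its depth-weighted difference reached 25 points and its adjusted p was below 0.01 in a quasi-likelihood logistic test of methylated and unmethylated reads, moderated across sites with limma. This called 2789 sites, 3.82% of those tested, with 2.27% of tested sites higher and 1.55% lower in lung. With horse as a replicate block the count depended on the form of the test: edgeR called 2473 sites and limma on log2 ratios 792, while the moderated test as first written called 0 (8259 at an unadjusted p under 0.05) and, with a prior revised after this was seen, 2631. All lung libraries lay above all liver libraries at 8.02% of the tested sites and below them at 8.13%, in sum 16.2% without overlap. Averaged over all sites with equal weight, the level was 69.3%, 69.4%, 68.8% and 69.1% in lung of horses 1 to 4 and 69.6%, 68.2% and 68.9% in liver of horses 1, 2 and 4. The difference of the means was 0.25 points, within the spread between liver libraries (exact 2-sided permutation p = 0.6 over 35 arrangements of the libraries). Groups of 4 and 3 libraries limit such a p to 0.0286 or more.

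The DMSs were not mirror images of each other in the 2 directions. Sites higher in lung had a median level of 82.5% in lung and 38.1% in liver, and sites lower in lung had 39.2% in lung and 75.6% in liver. The less methylated tissue was below 20% at 12.0% of the sites higher in lung and at 24.3% of those lower in lung. A change from under 20% in a tissue to 80% or more in the other was rare and was found at 6 sites. Those 6 were higher in lung at 5 positions, on chromosome 5 at 93883823, on chromosome 6 at 76340501 and 76340523, on chromosome 9 at 73407309 and on chromosome 28 at 34249467. The exception lay on chromosome 2 at 48840441, with lung at 3.33%, 5.56%, 17.6% and 18.2% in horses 1 to 4 and liver at 76.2%, 90.9% and 75.0% in horses 1, 2 and 4. All coordinates are those of EquCab3.0.

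The size of the lung and liver difference depended on the level of a site. Sites were divided by the mean of the lung and the liver level, a division that bounds the difference, since sites near 0% or 100% in the mean cannot differ much. Under 20% lay 9450 sites (12.9%) and at 80% or more 38498 sites (52.7%), and there 0.370% and 0.270% of sites were called. Called sites made up 12.1% of the 3467 sites between 20% and 40%, 14.6% of the 6455 between 40% and 60% and 8.46% of the 15180 between 60% and 80%, against 3.82% over all sites. These 3 middle classes held 34.4% of the tested sites and 95.0% of the DMSs.

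Spread within a tissue also peaked at intermediate levels, so single libraries were compared in pairs. Between 40% and 60% the median absolute difference per site was 10.6 points on average between lung libraries (6 pairs, 9.58 to 11.9), 11.4 points between liver libraries (3 pairs, at most 12.2) and 16.3 points between lung and liver of the same horse (3 pairs, 14.2 to 17.4). Lung and liver of different horses were farther apart, at 17.9 points (9 pairs, 16.2 to 19.5). At 80% or more the same values were 5.02 points, 5.20 points, 5.24 points and 5.60 points, and the ranges of these pairs overlapped. Tissue therefore added to the distance between libraries in the middle classes, and at the highly methylated sites that make up most of the data it added less than the range among pairs.

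**Figure D1:**
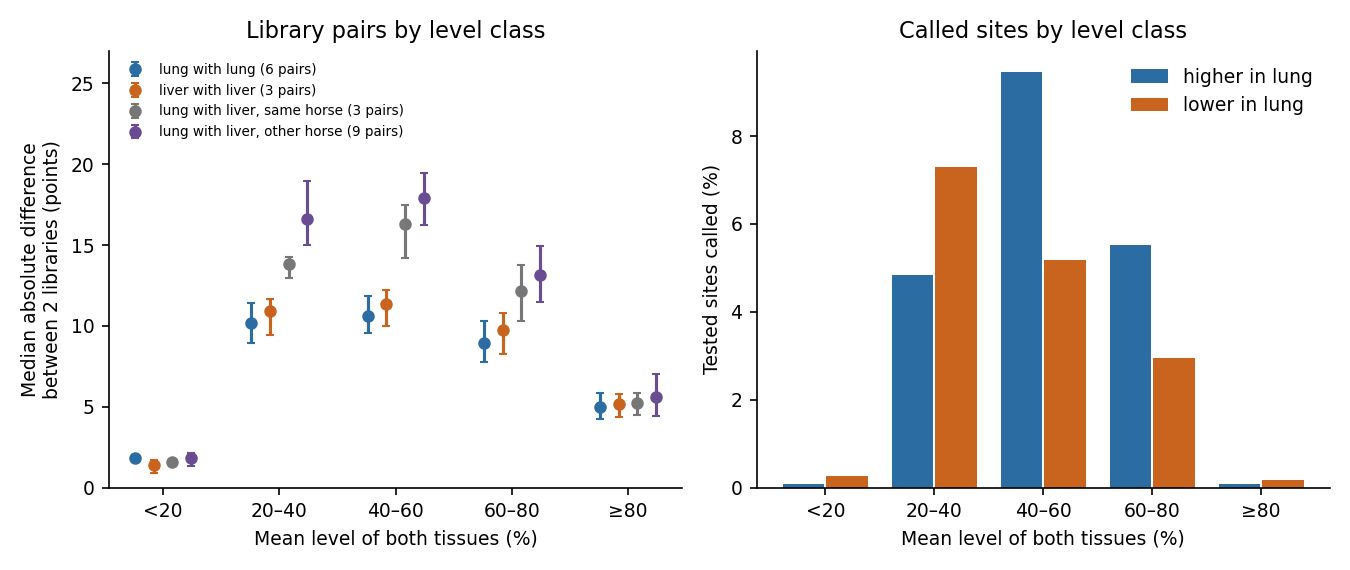
Left, the median absolute difference per CpG site between 2 libraries (points) against the mean level of both tissues (%), with dots for the mean over library pairs and bars for the lowest and highest pair. Right, the percent of tested sites called in each direction in the same classes. Between 20% and 80% the pairs of lung with liver lie above those within a tissue on average, and at 80% or more the 4 kinds of pair overlap.

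The direction of the called sites changed with level as well. Between 40% and 60%, 64.7% of called sites were higher in lung, and between 60% and 80% this was 65.2%. Between 20% and 40% only 39.9% of 421 called sites were higher in lung, and under 20% it was 9 of 35 sites. At 80% or more it was 35 of 104 sites. In these 3 classes the called sites were thus more often lower in lung.

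Averaged over called and uncalled sites, the classes differed little. Between 40% and 60% the lung libraries stood at 53.3%, 52.3%, 52.7% and 51.8% in horses 1 to 4 and the liver libraries at 52.1%, 48.4% and 49.7% in horses 1, 2 and 4. Lung was higher by 2.43 points, lung of horse 4 lay below liver of horse 1, and the difference within horses was 1.15, 3.94 and 2.03 points in horses 1, 2 and 4 (exact permutation p = 0.0571, adjusted 0.286 over 5 classes). With sites weighted by read depth this difference was 2.19 points (exact permutation p = 0.0286, the smallest possible, adjusted 0.143 over 5 classes). With at least 20 reads in every library it was 1.00 points (exact permutation p = 0.343, adjusted 0.762). Differences in the other classes ran from -0.51 points at 80% or more to 0.84 points between 60% and 80%, with adjusted p from 0.333 to 0.686 in exact permutation tests.

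CpG density set a second gradient. Density was taken as the number of other listed CpGs within 100 bp, and 35066 sites had 0 to 2 such neighbours while 2792 sites had 15 or more. The share of sites called fell from 4.71% at 0 to 2 neighbours to 4.10% at 3 to 5, 2.60% at 6 to 9, 1.02% at 10 to 14 and 1.15% at 15 or more. The level of sites fell as well, although not in order, from 74.5% in lung and 74.2% in liver in the sparse class to 50.5% and 50.7% in the densest. Lung minus liver differences of the class means were -0.12 to 0.36 points, within the spread of the libraries (exact permutation, adjusted p = 0.971 in each of the 5 classes).

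The gradient remained within classes of level. Between 40% and 60%, 16.2% of sites were called at 0 to 2 neighbours, 15.1% at 3 to 5, 12.3% at 6 to 9, 6.23% at 10 to 14 and 4.41% at 15 or more. Between 60% and 80% the share went from 9.24% in the sparse class to 2.69% in the densest. Dense CpGs of intermediate level were thus called less often than sparse ones of the same level. Over sites of every level, the median depth was 47 reads in the densest class and 29 reads in the sparse class. The depth of the intermediate sites alone was not examined.

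Direction also turned with density. Of the called sites, 60.6% were higher in lung at 0 to 2 neighbours, 61.8% at 3 to 5 and 56.3% at 6 to 9, but 39.7% of 63 sites at 10 to 14 and 5 of 32 sites at 15 or more. Those 32 sites are few places, since the 27 that were lower in lung lay in 7 runs of CpGs no more than 1000 bp apart, on 5 chromosomes, and the 5 that were higher lay in 2 runs. A single run held 8 of the 27. At 10 to 14 neighbours the 25 sites higher in lung lay in 12 runs on 10 chromosomes. The 38 lower in lung lay in 20 runs on 14 chromosomes. Among all sites of intermediate level (20% to 80%), the densest class minus the sparse class came to -10.55 points in lung and -7.40 points in liver, and the contrast differed between the tissues by no more than libraries did (difference -3.15 points, exact permutation p = 0.2).

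**Figure D2:**
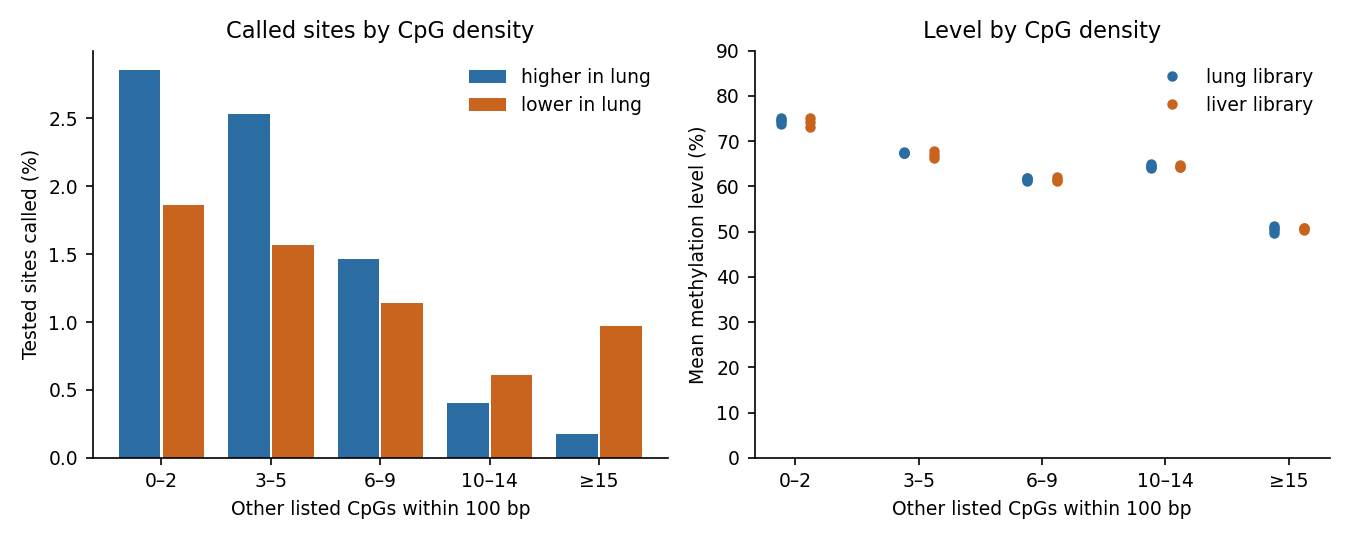
Left, the percent of tested sites called higher or lower in lung against the number of other listed CpGs within 100 bp. Right, the mean methylation level (%) of each lung and liver library in the same classes. Called sites thin out with density and turn from mostly higher to mostly lower in lung at 10 neighbours or more, while the libraries of both tissues overlap in level in every class.

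Lung and liver differences were shared by neighbouring CpGs well beyond the length of a read. Reads of 75 bp cover several CpGs, so a lung and liver difference was correlated between a CpG in a horse and its neighbour in another horse, which share no reads. At the same CpG, Pearson's r between horses was 0.516 (0.497 to 0.531 over 3 pairs of horses, 73050 sites). For neighbours 2 to 25 bp away it was 0.437 (0.419 to 0.454 over 6 ordered pairs of horses, 40140 pairs of CpGs), and for 51 to 75 bp it was 0.358. Beyond the read length r was 0.221 at 76 to 150 bp, 0.183 at 151 to 300 bp and 0.115 at 301 to 600 bp. It was 0.0659 at 601 to 1000 bp, 0.0309 at 5001 to 10000 bp and 0.00137 at 100001 to 1000000 bp. These correlations run across pairs of CpGs, which are not independent, and they describe these libraries without a test.

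Neighbours within the same horse were more alike at short distances, with r at 0.599 for 2 to 25 bp against 0.437 across horses, and hardly so beyond the read length, with 0.236 against 0.221 at 76 to 150 bp. Pairs at different distances also come from different CpGs. With 20 reads or more in each library the order was not kept, as r across horses was 0.135 at 76 to 150 bp and 0.200 at 301 to 600 bp. A difference between 2 horses, read in lung at a CpG and in liver at its neighbour, had another course. At the same CpG it was 0.222. It was at 0.105 for 2 to 25 bp, rose to 0.248 at 76 to 150 bp and was still 0.186 at 301 to 600 bp. This mean was above the 0.115 of the tissue difference, but the ranges, 0.0983 to 0.278 and 0.0899 to 0.143, overlapped.

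Calls followed the same scale. Among tested neighbours of a DMS, 65.6% were called in the same direction at 2 to 25 bp, 50.7% at 51 to 75 bp, 43.6% at 76 to 150 bp, 28.0% at 301 to 600 bp and 7.66% at 601 to 1000 bp. None of these neighbours was called in the other direction up to 1000 bp. Both calls use the same libraries, so within a read length these shares partly rest on the same reads. From 1001 to 2000 bp 5.82% were called in the same and 1.84% in the other direction. At 100001 to 1000000 bp the shares were 2.02% and 2.06%, near the percents called over all sites.

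**Figure D3:**
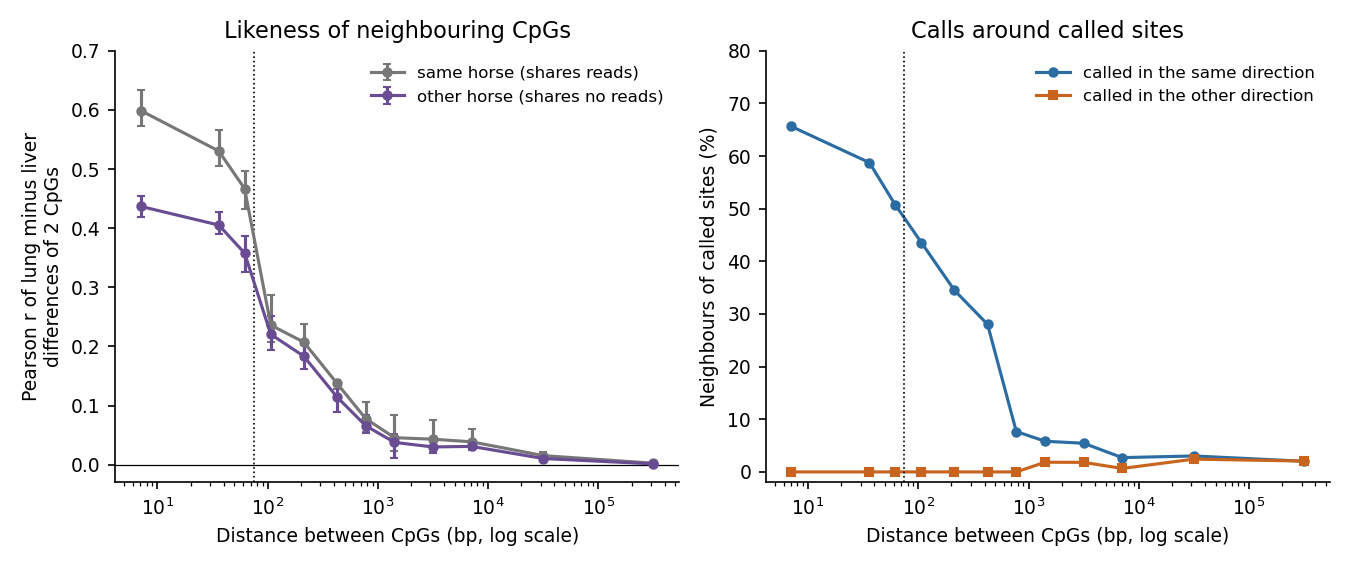
Left, Pearson's r of the lung minus liver differences of 2 CpGs against their distance (bp, log scale), within a horse and across horses, with dots for the mean and bars for the lowest and highest pair of horses. Right, the percent of tested neighbours of a called site that were called in the same or the other direction. The dotted line marks the read length of 75 bp. Both panels fall steeply up to about 1000 bp, and the curves within and across horses nearly meet beyond the read length.

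The sites gathered into 201 clusters, each with 3 or more called sites of equal direction and gaps of 200 bp or less. The median span was 47 bp, shorter than a read, and 14 clusters spanned more than 75 bp. All tested CpGs were called in 171 of them. Lung and liver libraries stood apart by 25 points or more between their nearest values in 122 clusters, a count over regions chosen for their difference. Among the 71 clusters lower in lung, lung was below 20% in 29, while among the 130 higher in lung, liver was below 20% in 11.

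The 6 clusters of each direction with the widest gap between the tissues are given by library, horses 1 to 4 for lung and 1, 2 and 4 for liver. Of those higher in lung, the widest gap was at chr2:56498697-56498730, where 4 CpGs were at 90.9%, 90.6%, 87.8% and 92.2% in lung and 33.5%, 29.2% and 26.7% in liver. At chr9:73407284-73407309, 3 CpGs were at 92.5%, 93.9%, 90.6% and 87.7% in lung and 25.7%, 21.2% and 34.0% in liver. The nearest values of the tissues were 54.4 and 53.8 points apart.

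At chr18:18472576-18472622, lung was at 94.4%, 96.2%, 100% and 93.9% and liver at 41.2%, 33.8% and 33.8%. The value of 100% rests on 33 counts over 3 CpGs. As separate reads, 0 unmethylated counts among them would allow a level down to 90.9%. No single CpG had more than 11 reads in that library, so this limit is too narrow. At chr10:15599341-15599398, a CpG-dense place with a median of 11 neighbours, lung was at 84.1%, 83.8%, 86.3% and 84.6% and liver at 32.2%, 35.9% and 35.1%. The libraries of a tissue varied little there, with SDs of 1.10 points in lung (n = 4) and 1.96 points in liver (n = 3). The cluster at chr19:46399771-46399927 reached over 157 bp, with lung at 82.3%, 89.6%, 91.1% and 81.8% and liver at 34.0%, 30.5% and 20.3%. At chr28:34249422-34249467, lung was at 84.5%, 75.0%, 80.8% and 82.3% and liver at 27.2%, 12.5% and 15.2%.

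In 4 of the 6 clusters lower in lung, lung was below 5% on average. At chr2:44370916-44370966, 8 CpGs were at 0.893%, 0%, 3.85% and 1.04% in lung and 59.4%, 77.1% and 54.0% in liver. The lung library of horse 2 had 0 methylated of 160 counts there, which allows up to 1.88%. At chr11:60519323-60519387, lung of horse 3 was at 4.40% and the other lung libraries at 0%, while liver was at 53.6%, 59.7% and 66.3%. Zero counts among the 112, 119 and 70 of horses 1, 2 and 4 allow up to 2.68%, 2.52% and 4.29%. Counts of neighbouring CpGs can come from the same reads. No single CpG had more than 20 reads in that library at the chromosome 2 cluster. On chromosome 11 it was at most 16, 17 and 10 reads in horses 1, 2 and 4. These limits are therefore much too narrow, and they cover counting error only.

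At chr12:34445848-34445903, 7 CpGs were at 1.53%, 1.90%, 1.19% and 4.08% in lung and 50.1%, 56.8% and 52.5% in liver. At chr14:9835498-9835543, lung was at 7.84%, 2.86%, 0% and 5.26% and liver at 56.8%, 54.1% and 56.3%. As separate reads, 0 of 39 counts in lung of horse 3 would allow up to 7.69%. No single CpG had more than 13 reads in that library, so this limit is too narrow. Liver levels near 50% in these 2 clusters varied between horses with SDs of 3.40 and 1.47 points (n = 3). The remaining 2 clusters had higher lung levels. At chr2:48840414-48840462, lung was at 2.38%, 5.56%, 14.7% and 17.0% and liver at 74.9%, 74.8% and 67.9%, and at chr15:83209486-83209536 the lung libraries read 10.8%, 16.1%, 22.9% and 24.8% and the liver libraries 65.7%, 71.4% and 70.3%. The largest adjusted p of a site in these 12 clusters was 0.00203 in the moderated quasi-likelihood test. No other tested CpG lay within 1000 bp of any of the 12, so their outer borders were not seen.

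**Figure D4:**
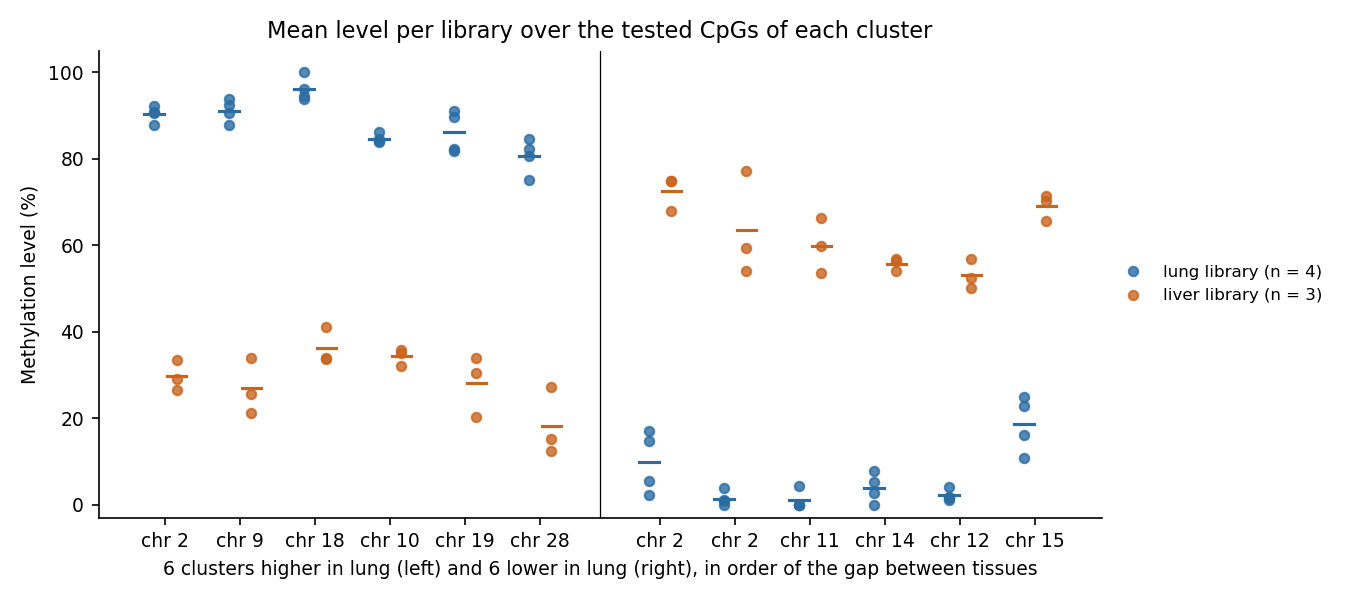
Methylation level (%) of each lung and liver library in the 12 named clusters, as the mean over the tested CpGs of the cluster, with short lines for the tissue means. Left, the 6 clusters higher in lung, with liver between 12.5% and 41.2%. Right, the 6 lower in lung, where lung stays at or below 24.8% and liver lies between 50.1% and 77.1%.

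Borders could be seen at clusters with tested CpGs nearby. At 17 clusters with 3 or more tested CpGs within 1000 bp outside them, the median difference inside the cluster was 35.8 points in size, and that of the flanking CpGs was 17.4 points in the direction of the cluster. Flanks differed by 10 points or more in that direction at 11 of the 17. Flanking CpGs could be DMSs themselves, as 5 of 7 were at chr9:30139885-30139969 and 4 of 5 at the nearby chr9:30140211-30140373. At chr10:16330016-16330080 the cluster was at 57.5% in lung and 26.0% in liver, while 4 flanking CpGs, the nearest 93 bp away, were at 0.775% and 0.309%. At chr4:107707755-107707778 the cluster stood at 70.4% and 23.5%, and 3 flanking CpGs, the nearest 27 bp away, were at 88.4% and 82.8%. These 2 were chosen for their sharp borders after the values were seen.

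Opposite differences could lie within the same megabase. The bin with the most called sites, at chr9:30000001-31000000, held 9 DMSs higher and 8 lower in lung among 202 tested sites. From 30139885 to 30139969 lung was at 79.3%, 80.6%, 77.3% and 80.5% and liver at 39.9%, 31.2% and 34.9%. A second cluster from 30140211 to 30140373 was at 78.8% ± 1.06 in lung (SD, n = 4) and 39.5% ± 3.37 in liver (n = 3). From 30220841 to 30220893, 80.468 kb farther on, lung was at 13.4%, 9.57%, 12.1% and 10.6% and liver at 44.8%, 29.0% and 47.1%. Over the whole bin the difference was -1.34 points, with an adjusted p of 0.554 in limma.

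Levels were also averaged over 1277 bins of 1 Mb with at least 20 tested CpGs, and tested with limma. With a threshold of 5 points and an adjusted p below 0.05, 174 bins were called, 13.6% of those tested, 8.38% higher and 5.25% lower in lung. The median absolute difference of a bin was 2.07 points. Bins with few sites were called more often, at 20.9% of bins with 20 to 26 sites and 3.49% of bins with 52 to 756 sites. The bins behaved alike in different horses, with Pearson's r of 0.656 to 0.705 between the differences of 2 horses. Over all 1277 bins, 56.1% had the same sign in the 3 horses. Among the called bins it was 171 of 174, a count that the call favours since these horses entered it.

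Neighbouring bins did not share their difference. Read in different horses, differences of adjacent bins correlated at -0.03 to 0.02 over 904 pairs. Bins also rested on few places, with a median of 14 runs of CpGs in a called bin. When each run counted equally, an alternative chosen after the data were seen, 168 bins were called, of which 111 were among the 174. Sites that were not themselves DMSs had the sign of the bin in 159 of the 174 and differed by 5 points or more in 63. No DMS lay in 29 of the called bins, so there such sites were the whole bin. Elsewhere they were part of the mean that was called, so both counts are partly fixed by the call.

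The bin with the largest difference lay at chr15:36000001-37000000, lower in lung. Its 25 sites averaged 47.8%, 45.9%, 47.1% and 47.1% in lung and 65.9%, 65.6% and 63.9% in liver, a difference of -18.14 ± 1.05 points (SE, limma adjusted p = 1.28e-06). Of its 12 runs 10 were lower in lung, 8 of its sites were called, and the uncalled ones differed by -7.76 points. At chr24:18000001-19000000, 33 sites were at 62.3%, 61.3%, 60.4% and 64.4% in lung and 73.0%, 71.6% and 75.0% in liver. There 14 of 15 runs were lower in lung and 3 sites were called, so the difference of the bin, -11.10 points, was carried by sites that mostly missed the call.

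The bin at chr11:60000001-61000000 followed its cluster. It differed by -11.60 points, 7 of its 38 sites were those of the cluster given above, and the uncalled sites differed by -0.96 points. With each run counted equally it differed by -3.90 points and was not called. The bins at chr22:12000001-13000000 and at chr17:4000001-5000000 differed by -10.02 and -9.94 points, with 2 called sites each and uncalled sites at -7.89 and -7.66 points.

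Among bins above liver in lung, the largest difference was at chr2:27000001-28000000, at 78.9%, 79.0%, 81.4% and 77.4% in lung and 65.3%, 59.3% and 61.5% in liver. All 13 DMSs of this bin were higher in lung. With each run counted equally the difference fell from 17.11 to 3.63 points and was not called (limma adjusted p = 0.108). At chr18:82000001-83000000 lung was at 86.1%, 87.6%, 85.0% and 84.1% and liver at 73.4%, 71.5% and 70.0%, a difference of 14.08 points that was 9.82 points with runs counted equally. Uncalled sites differed by 2.33 points in the bin at chr2:27000001-28000000 and by 1.48 points in the bin on chromosome 18. The bins at chr2:56000001-57000000, chr4:11000001-12000000 and chr19:46000001-47000000 differed by 13.22, 12.48 and 12.20 points, and their uncalled sites by -0.98, 4.83 and 5.33 points. In all 10 of these bins the 4 lung libraries lay on the same side of the 3 liver libraries, which the choice by size favours, and limma's adjusted p was 0.00515 or lower.

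**Figure D5:**
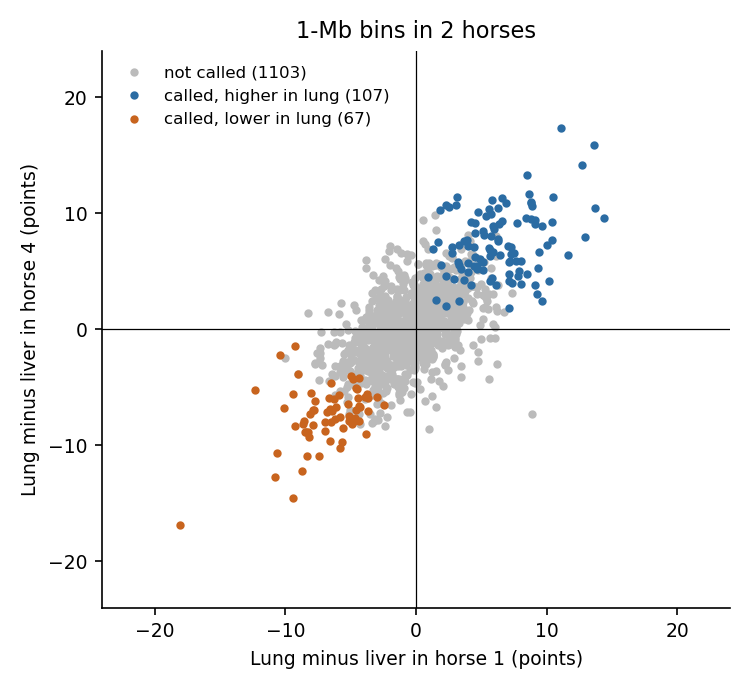
Lung minus liver difference (points) of each 1-Mb bin in horse 1 and in horse 4. Blue and orange dots are the 107 and 67 called bins and grey dots those not called. Bins line up along the diagonal (Pearson's r = 0.705), and the called bins, whose call used these horses, lie at the lower left and the upper right.

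Chromosomes differed little as wholes. The mean difference was above 0 on 23 of 31 chromosomes and had the same positive sign in the 3 horses on 11. Over all tested sites the difference was -0.30, 1.21 and 0.20 points in horses 1, 2 and 4. These shifts of whole libraries were not taken out, so they enter the signs by chromosome. Chromosome 12 had the lowest mean, with lung at 72.4%, 72.4%, 72.0% and 72.2% and liver at 74.5%, 73.5% and 74.1%, and was the only chromosome that was lower in lung in all 3 horses, by 2.15, 1.11 and 1.89 points. Lung was lower in 19 of its 24 bins, against 47.8% of all bins. The next lowest chromosome, 17, differed by -0.75 points. Of the 8 clusters on chromosome 12, 6 were lower in lung, among them 3 from 22996348 to 23012923 and 2 from 34445848 to 34450799. Sites of chromosome 12 that were not called differed by -1.73 points, close to the -1.81 points of all its sites. With each run of CpGs counted equally the difference was -0.73 points and turned to 0.42 points in horse 2. Chromosome 30 had the highest mean difference, 1.66 points, and lung was higher by 1.62, 2.17 and 1.97 points in horses 1, 2 and 4. Its sites that were not called differed by 0.58 points, and with each run counted equally the difference was 1.57 points. These chromosomes were picked as extremes and were not tested.

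The horses shared the direction of large differences more often than that of small ones. Sites were chosen by the difference of a single horse and read in another, which keeps the reads apart, over the 6 ordered pairs of horses 1, 2 and 4. Over all sites with a difference in both horses, the sign was shared at 60.5%. It was shared at 71.2% of sites chosen at 10 points or more, at 85.3% (82.3% to 89.0%) of those at 25 points or more, at 93.2% at 40 points and at 97.3% at 60 points. On average the sign was shared at 86.1% of sites chosen as higher and 84.8% of those chosen as lower in lung at 25 points, but the order changed with the horse. Chosen in horse 1 and read in horse 2 the shares were 91.0% and 84.9%, and chosen in horse 2 and read in horse 1 they were 81.3% and 86.7%. At 80% or more the means were 71.0% for higher and 80.1% for lower.

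Differences shrank when read in another horse. Sites chosen at 25 points or more had a median of 32.8 to 33.8 points in the horse of the choice and of 16.6 to 25.5 points in the same direction in the other. Another 25 points or more in the same direction was reached at 42.4% of them, and in the opposite direction at 1.03%. Among the sites with 20 reads or more in each library the sign was shared at 92.3%, and these are other sites as well as deeper ones. By level it was shared at 88.7% between 40% and 60% and at 75.9% at 80% or more. The level classes were set from the same horses and bound the differences that are read, so this contrast is partly fixed by the classes.

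Horses differed in how many large differences they showed. Differences of 25 points or more were seen at 5422 sites in horse 1, 8288 in horse 2 and 7545 in horse 4, of which 49.5%, 58.8% and 52.7% were higher in lung. The liver library of horse 2 had the lowest depth, and its part in that count was not tested. The share of DMSs higher in lung fell with depth, from 65.0% where the shallowest library had 10 or 11 reads to 61.1% at 12 or 13, 58.7% at 14 to 18 and 52.3% at 19 reads or more. Without liver of horse 1, the deepest library, the share was 70.2% of 1640 sites. Without liver of horse 2, the shallowest, it was 60.4% of 2290 sites. The excess of sites higher in lung, 59.5% over all DMSs, was thus smaller at the deeper sites, but not when the shallowest library was left out.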

How the data were processed

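DNA from frozen tissue was made into RRBS libraries with an Ovation kit and sequenced as single-end reads of 75 bp. The authors mapped the reads to EquCab3.0. FastQC and BSMAP stand in the submitters' processing notes, with versions not given in the sources used here. Per strand and CpG cytosine, the deposited files hold the coverage, a whole-number read count, beside the percent of C and of T among the reads. Methylated reads were coverage times percent of C, rounded. Reads may be PCR copies, so limits cover counting error only. Labels gave each sample's tissue, and the horse was read from the number in the name of each deposited file. Heart was not used and liver of horse 3 was not analysed here.

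Each site was tested by logistic regression on tissue, the Pearson dispersion being moderated with limma 3.58.1 (prior from pooled levels of 2% to 98%, dispersion at least 1), with Benjamini-Hochberg adjustment. Bins were tested with limma. Alternatives used edgeR 4.0.16, R 4.3.3 and Python 3.11.15. Tests were checked on simulated data. The moderated test with horse as a block, as first written, failed that check and called no site in the data. It was revised after both were seen: residual degrees of freedom followed the horses with both kinds of read, and the prior came from sites with both kinds in every horse and a pooled level of 10% to 90%. On simulated data the revised form recovered most of the larger differences put in and a minority of the smaller ones. Its false calls there are not given here, and recovery alone does not show that false calls were few. The same number was taken as the same horse. Departures from the tissue mean correlated at 0.185 to 0.217 between lung and liver of the same number and at most at 0.0289 otherwise. Named regions were the 6 clusters per direction with the widest gap between libraries, the 5 called bins per direction with the largest difference and the 3 bins with the most called sites. Members, lists and rules were chosen with earlier results of these data known.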

Additional observations from a re-analysis of the deposited data

Results flagged for a closer look

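Among the 36 groups of lung values examined for a sample far from the others, 2 stood out, and chance gives about 1 in 20. In the cluster on chromosome 11 from 60519323 to 60519387, lung of horse 3 was at 4.40% while the other 3 lung libraries were at 0%. The measure was the gap to the nearest library over the whole range. With the others all at 0%, any value above 0% would have been flagged, so this flag carries no weight. In the bin on chromosome 12 from 34000001 to 35000000, which had 16 called sites, 4 of them higher in lung, lung of horse 3 was at 70.5% and the other lung libraries at 72.3% to 72.5%. Liver there was at 76.2%, 74.5% and 74.9% in horses 1, 2 and 4. With 3 libraries liver was not examined in this way.

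Mitochondrial positions, which no comparison used, showed C above the level that a count of 0 allows, 0.0141% or less in each library. The percent of C was 1.35%, 1.69%, 0.613% and 0.713% in lung of horses 1 to 4 and 1.20%, 0.904% and 1.01% in liver of horses 1, 2 and 4. The tissues overlapped.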

How the results depend on the processing

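With the replicate block (horse, horses 1, 2 and 4) the moderated test as planned called 0 sites in 0 clusters (8259 at an unadjusted p under 0.05). A revision of its prior and residual degrees of freedom, made after this count and a failure on simulated data were seen, called 2631, so that value is not a planned check. EdgeR with the block, which was planned, called 2473. Of these, 2383 and 2273 were among the 2789, and no called site changed direction. The block left the count of bins within 1.5 times of the value reported, and limma on log2 ratios with the block called 792 sites (73.4% higher in lung) in 53 clusters. Without the block limma on log2 ratios called 1141 sites (71.0% higher in lung) in 74 clusters, and edgeR 2096. With 20 reads in every library, which left 14256 sites, 430 were called (53.3% higher in lung) in 28 clusters, and 5 of 73 bins, 1 of them higher in lung. With the dispersion fixed at 1 there were 308 clusters. With 50 or more CpGs a bin, 15 of 343 bins were called. Leaving out 1 library gave 1640 to 2732 called sites, 58.5% to 70.2% of them higher in lung, 109 to 188 clusters and 151 to 196 bins. The lowest counts of sites and clusters were those without liver of horse 1, and without liver of horse 4 there were 124 clusters.

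The mean difference over all sites was 1.03 points when sites were weighted by read depth and ran from -0.11 to 0.62 points when a library was left out. Between 40% and 60% weighting gave 2.19 points (exact permutation p = 0.0286, adjusted 0.143). Weighting gave 2.10 points at 6 to 9 neighbours and 3.06 points at 10 to 14 (exact permutation p = 0.143 and 0.171). Between 40% and 60% the difference was 1.00 points at 20 reads, and at 80% or more it was 0.30 points in horses 2 and 4 with classes taken from horse 1. Leaving out a library moved the differences by level class between 0.48 and 1.03 points (under 20%), -0.04 and 1.31 (20% to 40%), 1.57 and 3.46 (40% to 60%), 0.10 and 1.60 (60% to 80%) and -0.69 and -0.27 (80% or more). By density they ran between -0.15 and 0.82, 0.01 and 0.77, -0.23 and 0.22, -0.18 and 0.11, and -0.34 and 0.15 points from the sparsest class to the densest. Correlations between horses without sites below 10% or above 90% in every library were 0.458 at 2 to 25 bp, 0.25 at 76 to 150 bp, 0.134 at 301 to 600 bp and 0.0400 at 5001 to 10000 bp. With 20 reads they were 0.135 at 76 to 150 bp, 0.200 at 301 to 600 bp and 0.0572 at 5001 to 10000 bp. The sign was shared between horses at 93.2% of sites chosen at 40 points and at 92.3% with 20 reads. Equal weight for runs of CpGs in bins (168 called, 111 of them among the 174) and the removal of the 1% of sites with the most reads, which left the correlations within their spread over pairs of horses, were chosen after seeing the data. The cause of these changes was not tested.

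Depth limits the small differences. At a median of 30 reads per library and site, a change of a few points at a single site was not detectable.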
